A study of Homo sapiens with 8 samples.

Results

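The genes of the SNARE fusion machinery and its calcium sensors were followed in EndoC-βH5 cells, a human beta-cell line, with and without exposure to proinflammatory cytokines. The members were all protein-coding genes of the deposited table whose symbol begins with SYT, SYTL, STX, STXBP, VAMP, SNAP, UNC13, RIMS, CPLX or CADPS, with a number where the family numbers its genes, and SNAPC genes and SNAPIN were left out. This gave 59 members among 16525 listed genes, of which 13401 were protein-coding. By role they were 10 synaptotagmins, 4 synaptotagmin-like proteins, 6 syntaxins of the cell surface, 9 syntaxins of internal membranes, 4 genes of the SNAP-25 family, 7 VAMPs, 3 Sec1/Munc18 (SM) proteins, 4 other syntaxin-binding proteins, 8 priming and active zone proteins and 2 complexins. The remaining 2 were SNAP91, which encodes the clathrin assembly protein AP180 and shares only its name with the SNAREs, and STX16-NPEPL1, a readthrough transcript. A further 13 family names, among them SYT1, SYTL4 and RIMS1, were not analysed here.

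Insulin leaves the beta cell when granules fuse with the plasma membrane. A VAMP on the granule pairs with a syntaxin and a SNAP-25 protein on the cell surface, an SM protein holds the syntaxin and guides the assembly, and Munc13 (UNC13), RIM and CAPS (CADPS) proteins prepare docked granules for fusion. Complexins bind the assembled complex, and synaptotagmins sense the calcium that triggers it. Other syntaxins and VAMPs serve endosomes, the Golgi apparatus and autophagosomes.

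The line comes from fetal pancreatic rudiments, which were immortalized with SV40 large T antigen and hTERT, after which both transgenes were removed. RNA was sequenced from 4 untreated control libraries (CTRL) and from 4 libraries of cells given a mixture of TNFα at 1000 U/mL, IFNγ at 1000 U/mL and IL-1β at 50 U/mL for 48 h (CYT). Both groups were the same line in the same medium. By their column names the libraries form 4 pairs of 1 control and 1 cytokine library, called A, B, C and D here. Nothing in the labels says that libraries came from separate cultures, so p-values measure the spread between these libraries, which may be technical. The values are CPM, the reads of a gene scaled to the size of its library, and 36577438 to 40117636 reads were counted on listed genes per library. The CPM were scaled to 46767972 to 51145634 reads per library. Of these, 20.1% to 26.6% lay outside the listed genes, the most in library D of both conditions (26.6% in control, 26.5% with cytokines). On this scale 3 reads, the limit a count of 0 allows, equalled 0.0587 to 0.0641 CPM (counting error only). In both conditions libraries A and B stood apart from C and D, and C differed more from D than A did from B. All 12 beta-cell markers examined were listed, and their summed level was 24473 to 37270 CPM in control and 29564 to 53204 CPM in cytokine libraries. Most of this sum was CHGA, with 16689 to 24930 CPM in control and 20159 to 36198 CPM in cytokine libraries. INS had 1158 to 2905 and 1445 to 2172 CPM, so the sum does not follow the markers one by one. Of these markers 6 were called lower with cytokines (among them PDX1, MAFA, SLC30A8 and G6PC2), where 17.5% of all genes were, and none higher. The other 6 lay between -0.26 (UCN3) and 0.93 (IAPP) on the log2 scale, with INS at -0.17 and CHGA, NKX6-1 and PCSK1 at 0.39, 0.39 and 0.42. The immune markers PTPRC, CD3E, CD68 and MS4A1 were not among the listed genes. All 4 markers of other islet cells were listed, none was called, and SST ranged from 355 to 2143 CPM in controls. In RNA of whole cultures, fewer cells of a type and less RNA per cell cannot be told apart.

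Levels of different genes were compared per length, as TPM. In control cells the order was led by STX1A with 285 ± 19.8 TPM (SD, n = 4), the cell-surface syntaxin of regulated secretion. Further down came CPLX1 with 191 ± 21.8 TPM, SYT7, a calcium sensor of insulin secretion, with 188 ± 18.2 TPM, VAMP2, the VAMP of insulin granules, with 181 ± 12.2 TPM, SYT13 with 179 ± 66.8 TPM and SNAP25 with 160 ± 40.2 TPM. The range of STX1A did not overlap with that of CPLX1, while from CPLX1 to SYT11 (146 ± 22.3 TPM) each gene overlapped with the next. A total of 9 members reached 100 TPM and 18 reached 50 TPM in controls. At the other end 6 members had a mean under 1 TPM, namely SYTL3, SYT16, RIMS4, SYTL2, SYTL5 and CADPS2.

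Cytokines changed 20 of the 59 members (33.9%), of which 9 rose and 11 fell (limma on log2(CPM + 0.1), change above 0.5 on the log2 scale and adjusted p below 0.05). Of all genes 27.0% were called, 9.52% as higher and 17.5% as lower, beside 15.3% and 18.6% of the members. The median log2 difference was -0.0065 over the members and -0.17 over all genes. With TMM scaling the median was 0.15 over the members and -0.011 over all genes, and 13 members were called higher and 4 lower (28.8%), against 13.1% and 11.6% of all genes (24.7% together). All 9 rises were also called with TMM scaling, which added STX4, UNC13A, SYT14 and SYTL5. Of the 11 falls, 4 were called on both scales (SYT2, SNAP47, SYT16 and SYT17), and STX1A, CPLX1, CPLX2, SYTL1, SYT9, UNC13D and SNAP91 were called on the CPM scale and not with TMM scaling in limma or edgeR without the block. Of these 7, CPLX1 and UNC13D were called lower with the replicate block and TMM scaling together and in DESeq2. With the pairs as a replicate block 10 members were called higher and 15 lower, where 35.4% of all genes were called (11.6% higher and 23.8% lower). With the block and TMM scaling together the members' counts were 15 and 6 (32.2% of all genes called, 15.9% higher and 16.2% lower), and edgeR with the block and TMM gave the same numbers (32.0% of all genes). On the recovered reads without the block, edgeR with TMM gave 13 and 3 (24.5% of all genes, 13.1% higher and 11.4% lower) and DESeq2 14 and 6 (27.2% of all genes, 14.3% higher and 13.0% lower). In all 20 called members the change had the same direction in 4 of 4 pairs. Control and cytokine values were fully separate in 26 members, 12 of them higher and 14 lower with cytokines; of all genes 32.8% were separate, 10.8% higher and 21.9% lower. Of the 59 members, 55 were above 0.5 CPM, the authors' limit for a sample, in all 8 libraries. CADPS2 and SYTL5 were above it in no control library and in 3 cytokine libraries each. They could therefore be listed only through libraries other than these controls. Since the filter needed 4 samples, it may also have counted columns not used here.

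**Figure D1:**
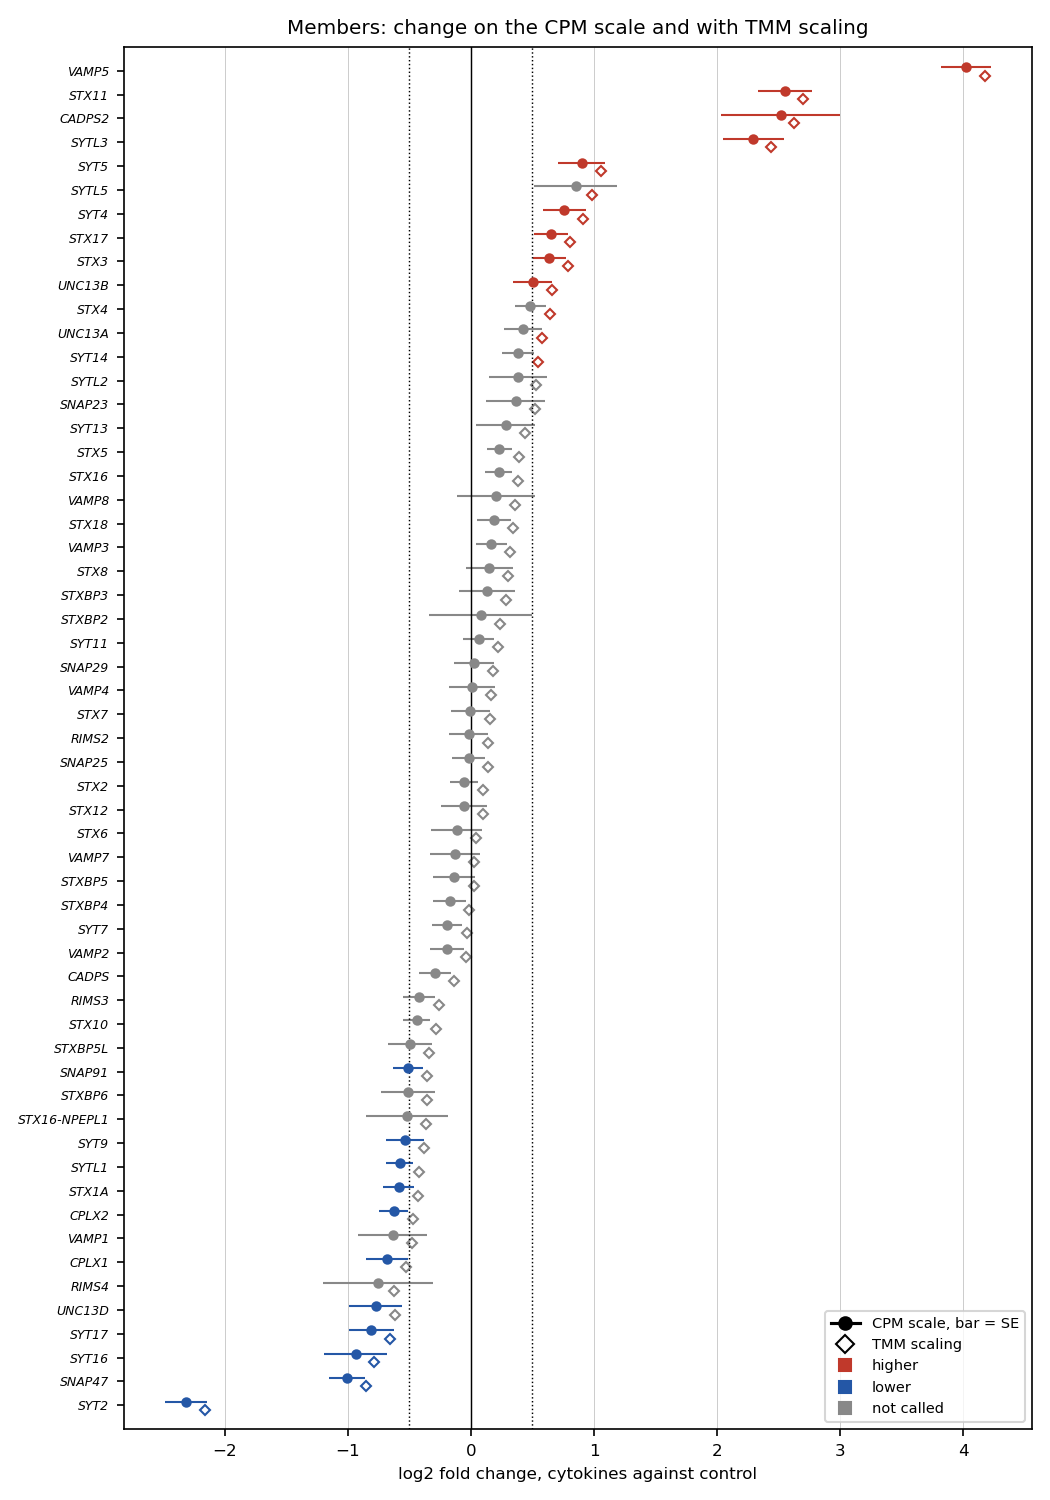
Log2 fold change with cytokines for 57 members, sorted by size; filled circles with SE bars are the CPM scale, open diamonds TMM scaling, red and blue mark genes called higher and lower, and dotted lines mark 0.5 in either direction. VAMP5 stands alone at 4.02, STX11, CADPS2 and SYTL3 lie between 2.30 and 2.55, SYT2 is lowest at -2.31, and the diamonds lie to the right of the circles.

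Among the VAMPs, VAMP5 rose 16.6-fold and the other 6 were not called on either scale. VAMP5 (ENSG00000168899, GRCh38 chr2:85584408-85593412, + strand), also called myobrevin and known from muscle, had 1.5, 2.24, 2.65 and 1.54 CPM in control libraries A to D and 31.6, 28.9, 38.5 and 32.9 CPM in the cytokine libraries. Every cytokine library exceeded every control library, and the log2 change was 4.02 (SE 0.20, adjusted p = 1.43e-07, limma). Its neighbour VAMP8, which serves secretory granules of exocrine and immune cells, lies 2376 bases upstream on the same strand with no gene between them. VAMP8 had 3.06, 3.77, 7.35 and 5.18 CPM in control and 4.15, 3.59, 7.87 and 6.65 CPM in cytokine libraries. Its groups overlapped, with the higher values in libraries C and D of both conditions, and its log2 difference was 0.20 (SE 0.32, adjusted p = 0.668). VAMP2 had 188, 160, 142 and 135 CPM in control and 145, 152, 125 and 123 CPM in cytokine libraries, a log2 difference of -0.19 (SE 0.14, adjusted p = 0.306), or -0.04 with TMM scaling. VAMP3, which can pair with the same surface SNAREs, differed by 0.16 on the log2 scale (SE 0.13, adjusted p = 0.358). VAMP1 had a log2 difference of -0.64 (SE 0.28, adjusted p = 0.112), called as lower when the pairs entered as a replicate block (adjusted p = 0.000168), in A and B alone, or when control C was left out; 9.47% of its exon bases lie opposite exons of TAPBPL, which rose by 2.17 on the log2 scale. Per length, VAMP5 made up 2.97% ± 0.772 (SD, n = 4) of the summed VAMP level in control and 35.5% ± 3.27 in cytokine libraries, beside 58.7% ± 7.22 and 36.8% ± 4.61 for VAMP2.

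The 2 neighbouring promoters are shown together because VAMP5 rose while VAMP8, a few kilobases away, was not called. The windows are the 250 bases before the RefSeq start (GRCh38.p14, + strand), chr2:85577336-85577585 for VAMP8 and chr2:85584181-85584430 for VAMP5. Capitals mark a match to the GAS motif, the letters TTCNNNGAA bound by STAT dimers, which begins 177 bases before the VAMP8 start. The VAMP5 window, with 70% G or C, held no match on either strand to GAS, to an ISRE (GAAA, any 2 bases, GAAA) or to a kappaB site (GGGA, any base, TTTCC).
VAMP8: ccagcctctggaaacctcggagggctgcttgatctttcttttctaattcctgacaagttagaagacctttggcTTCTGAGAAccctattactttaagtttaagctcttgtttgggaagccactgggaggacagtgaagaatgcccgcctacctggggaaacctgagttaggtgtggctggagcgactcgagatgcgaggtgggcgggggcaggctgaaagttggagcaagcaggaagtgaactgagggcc
VAMP5: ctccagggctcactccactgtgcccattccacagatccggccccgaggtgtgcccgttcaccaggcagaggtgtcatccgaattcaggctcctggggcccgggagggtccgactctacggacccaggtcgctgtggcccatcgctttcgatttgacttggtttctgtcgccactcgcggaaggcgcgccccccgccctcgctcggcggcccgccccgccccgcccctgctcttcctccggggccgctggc

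The surface syntaxins changed in opposite directions: STX11 and STX3 rose and STX1A fell. STX11 (ENSG00000135604, chr6:144150526-144188370, + strand), a syntaxin of immune cells needed for cytotoxic granule release, had 1.33, 1.38, 1.33 and 0.938 CPM in control and 7.90, 5.81, 9.94 and 7.66 CPM in cytokine libraries. It was higher in every cytokine library, by 6.29-fold and a log2 change of 2.55 (SE 0.22, adjusted p = 9.56e-06). STX3, found on insulin granules and at the apical face of epithelia, had 57.0, 60.5, 73.3 and 69.2 CPM in control and 96.6, 89.6, 122 and 96.8 CPM in cytokine libraries. The groups did not overlap, and STX3 rose by a log2 change of 0.64 (SE 0.13, adjusted p = 0.00467). STX1A (ENSG00000106089, chr7:73699206-73719672, - strand) had 308, 285, 266 and 249 CPM in control and 199, 209, 167 and 165 CPM in cytokine libraries. Each control library lay above each cytokine library, and the log2 change was -0.59 (SE 0.13, adjusted p = 0.00576). With TMM scaling the STX1A difference was -0.43 with an adjusted p of 0.0503 and was not called. STX4, a plasma membrane syntaxin of sustained insulin secretion, had 18.9 ± 1.98 CPM (SD, n = 4) in control and 26.4 ± 2.37 CPM in cytokine libraries, which did not overlap. Its log2 difference was 0.48 (SE 0.13, adjusted p = 0.0147), just under the fold limit, and 0.64 (adjusted p = 0.00113) with TMM scaling, where it was called, as it was without control C, control D or cytokine library A or B. STX2 was not called, with a log2 difference of -0.06. Per length, STX1A went from 74.8% ± 2.47 to 58.0% ± 3.91 of the summed level of surface syntaxins, STX3 from 9.95% ± 1.64 to 18.0% ± 3.10, and STX11 from 0.643% ± 0.0862 to 4.76% ± 1.17 (SD, n = 4).

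**Figure D2:**
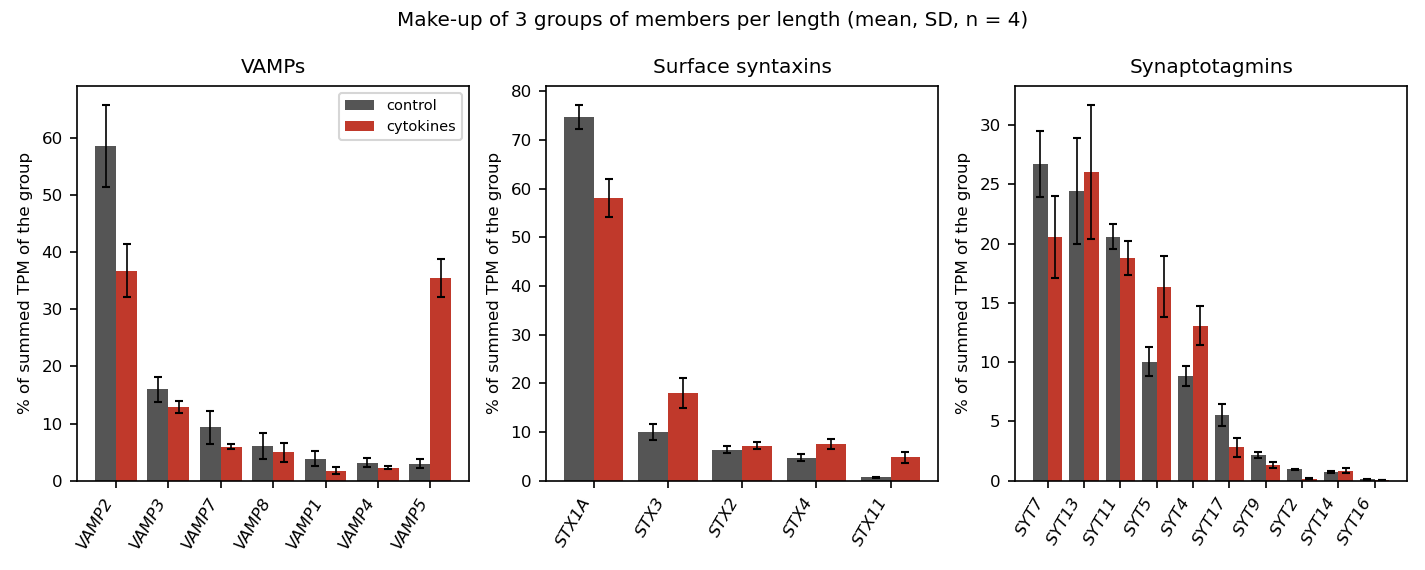
Share of the genes shown in the summed TPM of all VAMPs, all surface syntaxins and all synaptotagmins of the table, in percent; bars are means and error bars SD of 4 control (grey) and 4 cytokine (red) libraries. VAMP5 grew from 2.97% to 35.5% of the VAMPs, STX1A went from 74.8% to 58.0% of the surface syntaxins, and SYT5 from 10.02% to 16.4% of the synaptotagmins.

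The promoter of STX11 is shown with those of SYTL3 and SYT2, the other members described here that moved most and have a RefSeq window. The windows cover the 250 bases before the start in GRCh38.p14, chr6:144150267-144150516 (+ strand) for STX11, chr6:158649804-158650053 (+ strand) for SYTL3 and chr1:202710455-202710704 (- strand) for SYT2, each printed in the direction of transcription. None of them held a GAS, ISRE or kappaB match, so no letters are in capitals. The STX11 and SYT2 windows hold 78% and 74.4% G or C, the SYTL3 window 52.4%.
STX11: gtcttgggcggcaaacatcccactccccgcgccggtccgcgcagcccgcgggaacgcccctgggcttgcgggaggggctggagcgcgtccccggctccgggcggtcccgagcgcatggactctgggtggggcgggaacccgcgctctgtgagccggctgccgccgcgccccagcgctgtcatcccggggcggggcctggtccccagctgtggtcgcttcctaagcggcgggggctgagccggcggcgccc
SYTL3: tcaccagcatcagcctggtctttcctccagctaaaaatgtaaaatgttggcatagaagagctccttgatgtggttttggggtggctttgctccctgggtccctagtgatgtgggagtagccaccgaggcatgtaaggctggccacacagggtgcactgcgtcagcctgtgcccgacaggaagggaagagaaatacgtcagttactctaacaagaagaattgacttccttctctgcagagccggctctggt
SYT2: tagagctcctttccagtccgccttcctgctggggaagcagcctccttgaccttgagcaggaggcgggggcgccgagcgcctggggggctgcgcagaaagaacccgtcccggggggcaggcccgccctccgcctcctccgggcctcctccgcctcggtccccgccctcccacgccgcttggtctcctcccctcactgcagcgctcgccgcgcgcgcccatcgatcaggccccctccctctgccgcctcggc

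In the SNAP-25 family SNAP47 fell and the other 3 genes were not called. SNAP47 (ENSG00000143740, chr1:227728539-227781231, + strand), a relative of SNAP-25 without its membrane anchor, had 33.4, 31.2, 41.6 and 36.3 CPM in control and 17.1, 14.7, 20.9 and 18.2 CPM in cytokine libraries. All cytokine libraries were lower, by 2.01-fold and a log2 change of -1.01 (SE 0.14, adjusted p = 0.000453). Of its exon bases 35.3% lie opposite exons of JMJD4, whose log2 difference was -0.50 (adjusted p = 0.0916). SNAP25, the partner of STX1A in insulin release, had 125, 126, 164 and 137 CPM in control and 124, 124, 161 and 137 CPM in cytokine libraries. These values overlapped almost fully, with a log2 difference of -0.02 (SE 0.13, adjusted p = 0.935) on the CPM scale and 0.14 with TMM scaling. SNAP23, the widely expressed relative of SNAP25, had 4.18 ± 1.06 and 5.42 ± 1.44 CPM (SD, n = 4) and a log2 difference of 0.36 (SE 0.24, adjusted p = 0.277). It was higher in the cytokine library of each of the 4 pairs, and was called higher with the replicate block and TMM scaling (0.52, adjusted p = 0.00237) and in DESeq2 (0.54, adjusted p = 0.0487), but not with the block on the CPM scale, where it lay under the fold limit.

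None of the 3 SM proteins was called. STXBP3 (Munc18c), the partner of STX4, differed by 0.13 on the log2 scale (SE 0.23, adjusted p = 0.707), and STXBP2 (Munc18-2), which works with STX11 in cytotoxic cells, by 0.08 (SE 0.42, adjusted p = 0.908). The 4 other syntaxin-binding genes, STXBP4, STXBP5, STXBP5L and STXBP6, had log2 differences of -0.51 to -0.14 and none was called; that of STXBP6 (-0.51, adjusted p = 0.097) was called with the replicate block (adjusted p = 0.00831), without control A and in C and D alone, and STXBP5L (-0.50) was called when control A or cytokine library D was left out and in C and D alone.

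Of the 10 synaptotagmins 2 rose (SYT5 and SYT4) and 4 fell (SYT2, SYT16, SYT17 and SYT9). SYT2 (ENSG00000143858, chr1:202590596-202710417, - strand), a fast calcium sensor of synapses, had 13.98, 13.0, 15.0 and 12.1 CPM in control and 3.24, 2.76, 2.23 and 2.39 CPM in cytokine libraries. It was lower in every cytokine library, 5.09-fold, with a log2 change of -2.31 (SE 0.17, adjusted p = 2.93e-06), the largest fall among the members. Of its exon bases 27.2% lie opposite exons of PPP1R12B, which differed by 0.41 on the log2 scale (adjusted p = 0.0624).

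SYT5, a calcium sensor of dense-core vesicles, had 107.3, 108, 112 and 73.5 CPM in control and 196, 195, 230 and 130 CPM in cytokine libraries. Library D was the lowest in both conditions, and cytokine D still lay above every control; SYT5 rose by a log2 change of 0.90 (SE 0.19, adjusted p = 0.00522). SYT4, whose C2 domains bind little or no calcium, had 64.6, 67.2, 92.8 and 68.0 CPM in control and 106, 103, 167 and 124 CPM in cytokine libraries. Library C was the highest in both conditions and the groups did not overlap, with a log2 change of 0.76 (SE 0.18, adjusted p = 0.00803).

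SYT17 had 87.3, 87.6, 76.3 and 57.6 CPM in control and 51.6, 53.3, 36.1 and 35.7 CPM in cytokine libraries, and fell by 0.81 on the log2 scale (SE 0.18, adjusted p = 0.00722). SYT16 went from 2.55 ± 0.378 to 1.32 ± 0.437 CPM (SD, n = 4), a log2 change of -0.93 (SE 0.26, adjusted p = 0.0182), and lost its call without control B or without cytokine library D, and in edgeR with TMM. SYT9, a calcium sensor of regulated secretion, went from 18.7 ± 3.05 to 12.8 ± 1.59 CPM (SD, n = 4), a log2 change of -0.54 (SE 0.15, adjusted p = 0.0223). This call was lost when control B, control C or cytokine library A, C or D was left out, and with TMM scaling (-0.38, adjusted p = 0.0687). Of these, SYT16 and SYT17 are synaptotagmins regarded as calcium-independent.

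The synaptotagmins of highest level were not called. SYT7 had 328, 295, 297 and 258 CPM in control and 269, 279, 243 and 239 CPM in cytokine libraries, with a log2 difference of -0.19 (SE 0.12, adjusted p = 0.254). The highest cytokine library exceeded the lowest control, so the groups overlapped. SYT13, which does not bind calcium, had 248 ± 64.9 and 308 ± 113 CPM (SD, n = 4) and a log2 difference of 0.28 (SE 0.24, adjusted p = 0.414). SYT11, which likewise lacks calcium binding, differed by 0.06 on the log2 scale (SE 0.12, adjusted p = 0.739). SYT14 differed by 0.38 on the log2 scale (SE 0.13, adjusted p = 0.0428), under the fold limit, and by 0.54 (adjusted p = 0.0076) with TMM scaling, where it was called. Per length, SYT7 held 26.7% ± 2.81 of the summed synaptotagmin level in control and 20.6% ± 3.45 in cytokine libraries, SYT5 10.02% ± 1.22 and 16.4% ± 2.55, and SYT2 0.936% ± 0.0378 and 0.163% ± 0.0403 (SD, n = 4).

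The synaptotagmin-like proteins bind Rab27 on granules and tether them to the plasma membrane. SYTL3 (ENSG00000164674, chr6:158650014-158764876, + strand) had 0.641, 0.487, 0.518 and 0.802 CPM in control and 3.88, 2.71, 2.84 and 4.18 CPM in cytokine libraries, from 23 to 41 and 127 to 208 reads. All cytokine libraries were higher, by 5.56-fold and a log2 change of 2.30 (SE 0.24, adjusted p = 5.55e-05). SYTL1, the member of the group with the highest level, had 207, 191, 176 and 182 CPM in control and 133, 129, 114 and 131 CPM in cytokine libraries. It fell by 0.58 on the log2 scale (SE 0.11, adjusted p = 0.00268), without overlap, but by 0.42 (adjusted p = 0.028) with TMM scaling, which is under the fold limit. SYTL5 had 7 to 22 reads in control and 19 to 44 in cytokine libraries, which overlapped, and a log2 difference of 0.85 (SE 0.34, adjusted p = 0.081). It was called with TMM scaling (0.98, adjusted p = 0.0457) and with the replicate block (adjusted p = 0.0388). SYTL5 was above 0.5 CPM in no control library and could be listed only through libraries other than these controls. These calls are therefore no independent support for a rise. SYTL2 was not called, at 0.38 on the log2 scale (adjusted p = 0.251), except with the replicate block and TMM scaling together (0.53, adjusted p = 0.0317 in limma).

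**Figure D3:**
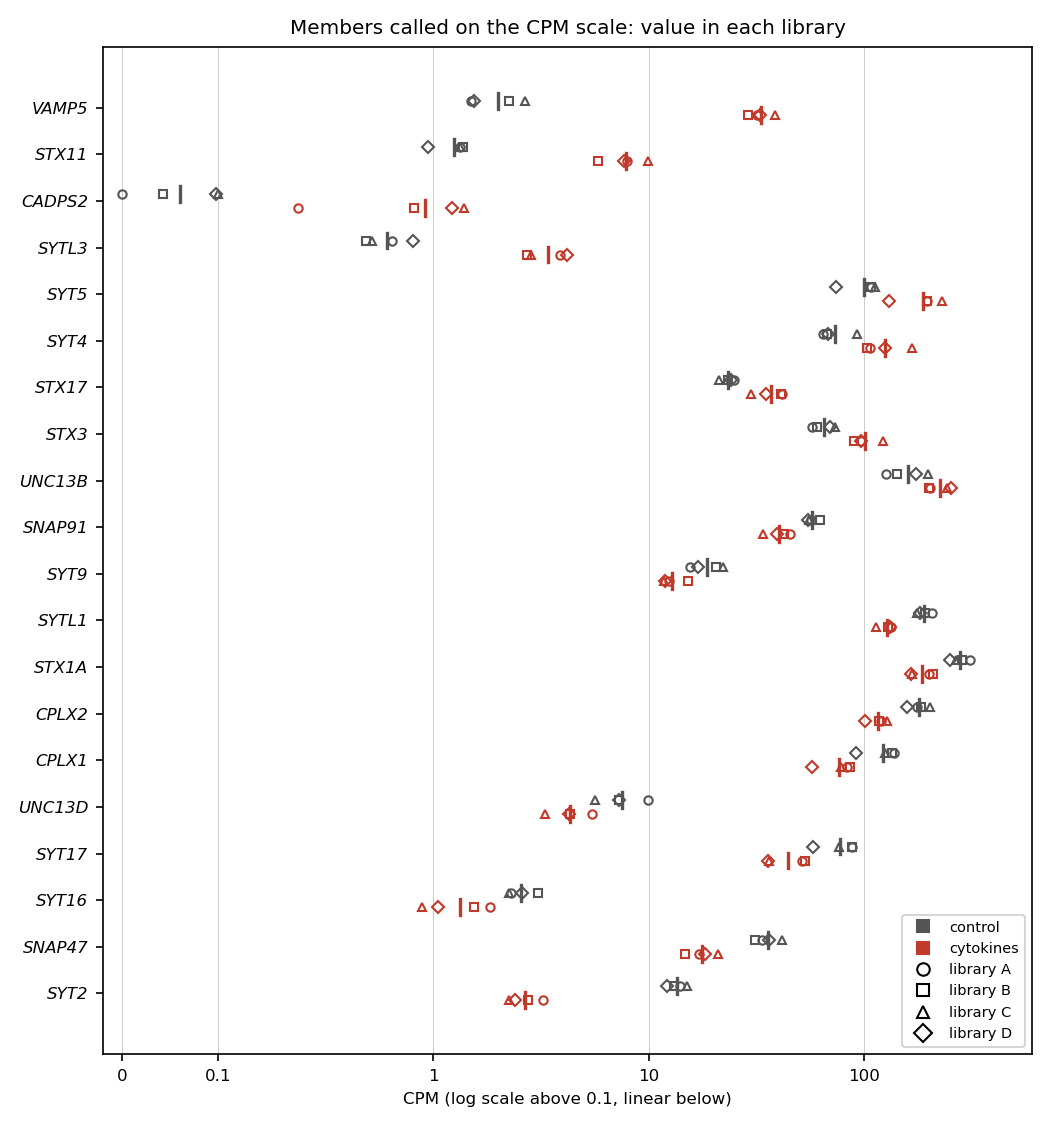
CPM of the 20 called members in each library, on an axis that is logarithmic above 0.1 CPM and linear below it; grey marks are control and red marks cytokine libraries, the shapes give the pair A to D, and vertical bars are the means. In all 20 genes the 4 cytokine libraries lie to one side of the 4 control libraries.

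Among the priming and active zone genes CADPS2 and UNC13B rose, UNC13D fell and the other 5 were not called. CADPS2, one of the 2 CAPS proteins that prepare dense-core granules, was read 0 to 5 times per control library and 11 to 69 times per cytokine library. Its values were 0, 0.0423, 0.0995 and 0.0978 CPM in control and 0.234, 0.812, 1.39 and 1.23 CPM in cytokine libraries. Pair A had the lowest value in both groups, and the log2 change was 2.52 (SE 0.48, adjusted p = 0.00282), against 4.02 in edgeR on the reads. CADPS2 was above 0.5 CPM in no control library and could be listed only through libraries other than these controls. Its call is therefore no independent support for a rise. CADPS, its relative of far higher level, had 239 ± 40.4 and 193 ± 5.63 CPM (SD, n = 4) and a log2 difference of -0.29 (SE 0.13, adjusted p = 0.119). UNC13A (Munc13-1), which primes insulin granules, had 274, 293, 233 and 235 CPM in control and 398, 398, 276 and 326 CPM in cytokine libraries. The groups overlapped because cytokine library C lay below control B, while each cytokine library exceeded the control of its pair. The log2 difference was 0.42 (SE 0.15, adjusted p = 0.0567), UNC13A was called when cytokine library C was left out, and with TMM scaling it was called at 0.58 (adjusted p = 0.0298).

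UNC13B (Munc13-2) went from 160 ± 32.6 to 224 ± 27.0 CPM (SD, n = 4) at the very limit of the fold threshold (0.50, SE 0.16, adjusted p = 0.0353), and the call was lost without control A, control B or cytokine library A, C or D. UNC13D (Munc13-4), which acts with Rab27 in cytotoxic granule release, had 9.90, 7.26, 5.59 and 7.25 CPM in control and 5.43, 4.31, 3.30 and 4.26 CPM in cytokine libraries. All 4 cytokine libraries were below the controls, and it fell by 0.77 on the log2 scale (SE 0.21, adjusted p = 0.0191) or by 0.62 (adjusted p = 0.0724, not called) with TMM scaling. With TMM scaling and the replicate block together it was called lower (adjusted p = 0.000494), as it was in DESeq2 (adjusted p = 0.0368). STX11, UNC13D and STXBP2, whose loss impairs cytotoxic granule release in inherited immune disease, thus had log2 differences of 2.55, -0.77 and 0.08, the last of which was not called. RIMS2, the RIM protein of insulin granule docking, had 28.7 ± 5.02 and 28.3 ± 4.39 CPM (SD, n = 4) and a log2 difference of -0.02 (SE 0.16, adjusted p = 0.948), or 0.14 with TMM scaling. RIMS3 differed by -0.42 on the log2 scale (adjusted p = 0.0312), under the fold limit, and RIMS4 by -0.75 (SE 0.45, adjusted p = 0.228), called only with the replicate block (adjusted p = 0.0326).

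Both complexins fell on the CPM scale. CPLX1 was the higher complexin per length, with a mean of 66.4% of the summed complexin level in control and 65.6% in cytokine libraries. CPLX2 had 175, 184, 201 and 157 CPM in control and 119, 117, 127 and 101 CPM in cytokine libraries. Its log2 change was -0.63 (SE 0.12, adjusted p = 0.00282). CPLX1 had 137, 135, 125 and 91.7 CPM in control and 83.4, 85.5, 78.2 and 57.1 CPM in cytokine libraries, a log2 change of -0.68 (SE 0.17, adjusted p = 0.0114). In neither gene did the groups overlap, and library D was the lowest in both groups of both genes. Neither was called with TMM scaling alone, where CPLX2 differed by -0.47 (adjusted p = 0.0141) and CPLX1 by -0.52 (adjusted p = 0.0609). With the replicate block and TMM scaling together CPLX1 was called lower (adjusted p = 5.56e-06), as it was in DESeq2 (adjusted p = 0.041), while CPLX2 stayed under the fold limit.

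Of the 9 syntaxins of internal membranes only STX17 was called, on both scales. STX17, which drives the fusion of autophagosomes with lysosomes, had 24.8, 23.4, 21.1 and 24.0 CPM in control and 41.5, 41.1, 29.9 and 35.1 CPM in cytokine libraries. No libraries overlapped, and it rose by a log2 change of 0.65 (SE 0.13, adjusted p = 0.00441). STX10, a syntaxin of the trans-Golgi network, also separated without overlap but in the other direction, at -0.44 (SE 0.11, adjusted p = 0.0115), under the fold limit. The other 7 lay between -0.12 and 0.23 on the log2 scale. STX16 and STX16-NPEPL1 share exons on the same strand, 28.4% of the exon bases of STX16, so the count of each is uncertain. STX16 differed by 0.23 (adjusted p = 0.142) and the readthrough by -0.52 (adjusted p = 0.268). The readthrough was called with the replicate block (adjusted p = 0.0124) and in A and B alone (adjusted p = 0.0492). SNAP91 went from 57.1 ± 3.39 to 40.2 ± 4.97 CPM (SD, n = 4), a log2 change of -0.51 (SE 0.12, adjusted p = 0.00881), and lost the call without control B, without cytokine library C, and with TMM scaling (-0.36, adjusted p = 0.0626).

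Ratios between genes of the same library do not depend on how libraries are scaled, apart from the pseudocount. For 16 called members the log2 ratio to the member of highest level in the same group was therefore compared between conditions. Since the genes were taken because they were called, the ratios describe those calls and are no second test. Each ratio also holds the change of its reference gene. Of the references, STX1A, SYTL1 and CPLX1 fell by 0.59, 0.58 and 0.68 on the CPM scale. STX10 and UNC13A differed by -0.44 and 0.42, and VAMP2, SYT7 and SNAP25 by -0.19, -0.19 and -0.02. VAMP5 to VAMP2 went from -6.26 to -2.04, a difference of 4.21 (SE 0.29). STX11 to STX1A differed by 3.14 (SE 0.24) and STX3 to STX1A by 1.22 (SE 0.22). The SYT5 to SYT7 ratio differed by 1.09 (SE 0.19), SYT4 to SYT7 by 0.95 (SE 0.25) and SYT2 to SYT7 by -2.12 (SE 0.10). SNAP47 to SNAP25 differed by -0.99 (SE 0.053) and SYTL3 to SYTL1 by 2.87 (SE 0.19). UNC13D to UNC13A differed by -1.20 (SE 0.15), also without overlap. In 12 of the 16 ratios the libraries did not overlap, and the 2-sided exact permutation p was 0.0286 for each (adjusted over the 16 ratios, 0.0381), the smallest p that 4 against 4 libraries allow. The other 4 overlapped: CPLX2 to CPLX1 (0.05, SE 0.13), UNC13B to UNC13A (0.08, SE 0.30), SYT9 to SYT7 (-0.35, SE 0.15) and CADPS2 to UNC13A (2.09, SE 0.67), with exact permutation p of 0.629, 0.629, 0.114 and 0.0857.

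**Figure D4:**
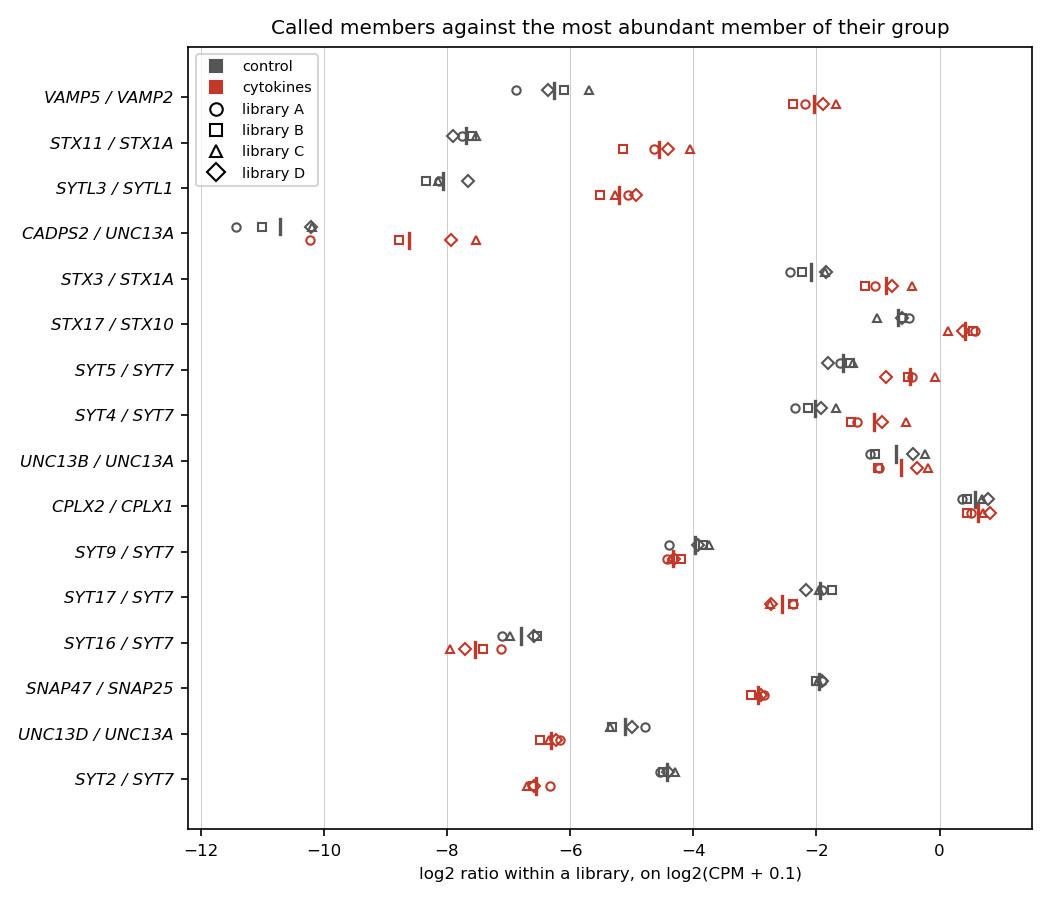
Log2 ratio within each library, on log2(CPM + 0.1), of 16 called members to the member of highest level in their group; grey is control, red cytokines, shapes give the pair and vertical bars the means. VAMP5 to VAMP2 moved most, from -6.26 to -2.04, and CPLX2 to CPLX1 differed by only 0.05.

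No difference in the change between the library series was detected, with only 2 libraries per condition in each series. The SE of this term in limma ran from 0.17 (STXBP5) to 0.78 (CADPS2) on the log2 scale. Sizeable differences could therefore be missed, and the result does not show that the series responded alike. For condition by series (A and B against C and D), none of the 59 members passed an adjusted p below 0.05 in limma or in edgeR, and none had an unadjusted p under 0.05, where 2.95% (limma) and 2.70% (edgeR) of all genes did; 0.0303% of all genes passed the adjusted threshold in each. Within A and B alone 10 members were called higher and 10 lower, against 11.7% and 17.1% of all genes (28.9% together). Within C and D alone the members' counts were 6 and 9, against 7.22% and 13.3% of all genes (20.5% together).

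Libraries C and D differed from A and B in several members, whatever the condition. In limma with a series term 6 members were higher in C and D (SYT13, CADPS2, SNAP23, STXBP3, VAMP8 and STX6) and 5 lower (among them STXBP2, RIMS4, VAMP1 and STX16-NPEPL1), against 14.2% and 6.50% of all genes (20.7% together). The largest difference was that of STXBP2, whose values were 19.2, 17.9, 5.87 and 8.95 CPM in control and 18.2, 19.3, 7.19 and 8.96 CPM in cytokine libraries A to D, a log2 difference between the series of -1.28 (SE 0.14, adjusted p = 6.96e-05). VAMP8 was higher in C and D by 0.87 on the log2 scale (SE 0.16, adjusted p = 0.00145). In edgeR with TMM 2 members were higher in C and D (SNAP23 and VAMP8) and 7 lower, against 8.79% and 8.81% of all genes (17.6% together). CADPS2, with 0 to 5 reads per control library, was thus called in limma (adjusted p = 0.0475) and not in edgeR. A and B are set apart from C and D by the middle part of the column names. What that part stands for is not given in the sources used here.

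Of the 59 members 45 had a RefSeq promoter window, 69 windows of 300 bases in all, from 250 bases before to 50 after a start. GAS letters were found on either strand in 6 of the 69 windows (8.70%), one each in RIMS3, STX2, STX7, SYT4, VAMP4 and VAMP8, against 7.66% of 35116 windows in the whole table. ISRE letters were in none of the member windows (3.57% of all windows), and kappaB letters in that of STXBP3 alone (1.45% against 0.558%). Among called members SYT4 alone held a GAS match. It is shown for that reason, from 250 bases before its start to the end of the match (chr18:43277487-43277740, - strand, GRCh38.p14), with the match in capitals, beginning 5 bases before the start. A match describes letters and is not evidence of binding.
SYT4: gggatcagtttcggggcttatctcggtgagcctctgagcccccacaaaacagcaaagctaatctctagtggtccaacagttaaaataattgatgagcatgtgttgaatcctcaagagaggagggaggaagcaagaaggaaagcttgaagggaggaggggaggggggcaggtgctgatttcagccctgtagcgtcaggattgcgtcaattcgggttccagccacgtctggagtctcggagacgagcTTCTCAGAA

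Genes of the same process outside these families were taken from a list of 78 names, of which 68 were listed in the table. Of these 8 rose and 8 fell (11.8% each), where 9.52% of all genes rose and 17.5% fell. With TMM scaling 11 (16.2%) rose and 6 (8.82%) fell, against 13.1% and 11.6% of all genes. Among the genes that take SNARE complexes apart, NAPA (alpha-SNAP) rose by 0.80 on the log2 scale (SE 0.10, adjusted p = 0.000189), while NSF, the ATPase it recruits, fell by 0.60 (SE 0.11, adjusted p = 0.00289) on the CPM scale and was not called with TMM scaling (-0.44). RAB27A, the granule Rab that binds synaptotagmin-like proteins, rose by 0.66 (SE 0.16, adjusted p = 0.0102), and RAB3D fell by 0.72 (SE 0.12, adjusted p = 0.0011). The Rab effectors RPH3A and RPH3AL fell by 1.71 (SE 0.34) and 0.99 (SE 0.12). RPH3A was low, with 1.22 ± 0.283 CPM in control and 0.322 ± 0.166 CPM in cytokine libraries (SD, n = 4). The latter mean lay under 0.5 CPM, the authors' limit for a sample. Of the other C2-domain calcium sensors DOC2B rose by 2.39 (SE 0.17), from 1.59 ± 0.154 to 8.76 ± 0.78 CPM (SD, n = 4), and DOC2A fell by 0.76 (SE 0.17). EXOC3L1, a relative of an exocyst subunit, rose from 0.356 ± 0.243 to 9.56 ± 0.475 CPM (SD, n = 4), and none of the other 9 listed exocyst genes was called on the CPM scale. The control mean of EXOC3L1 lay under 0.5 CPM, the authors' limit for a sample, so it could be listed through its cytokine libraries alone. Its call is therefore no independent support for a rise. The active zone genes ERC2 and PCLO rose by 1.53 and 0.56 and PPFIA4 fell by 1.89, and the SNAREs VTI1A and GOSR2 rose by 0.62 and 0.54. The vesicle proteins SYNGR1 and SV2A fell by 0.81 and 0.51, SV2A on the CPM scale only.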

How the data were processed

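Strand-specific mRNA libraries were made with a DNBSEQ kit. The authors filtered reads with SOAPnuke, aligned them to GRCh38 with TopHat2 2.1.1 and counted them with HTSeq 0.9.1 on Ensembl release 107. They deposited CPM for genes that passed 0.5 CPM in 4 or more samples. All values used (100%) were whole multiples of 1 read within 0.01 reads, so reads were recovered from 36577438 to 40117636 per library. Columns were mapped to groups by name; the cytokine columns are those named for 3 cytokines, and 4 further columns were not used.

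limma 3.58.1 in R 4.3.3 was run on log2(CPM + 0.1) with an intensity trend over all 8 libraries, without a block, and Benjamini-Hochberg adjustment over 16525 genes. Calls needed a log2 difference beyond 0.5 in either direction and an adjusted p below 0.05. Fold changes are on the log2(CPM + 0.1) scale, which understates changes of low genes. The pairs A to D come from shared column-name parts. Deviations from group means correlated by 0.57, 0.59, 0.80 and 0.74 within them, so they were used as a replicate block in an alternative fit, although libraries A and B of opposite conditions correlated as strongly (0.57 and 0.59). No 2 libraries were copies (chi-square per gene 5.88 or more). Other alternatives were TMM and median-of-ratios scaling, pseudocounts of 0.5 and 1, a filter at a mean of 1 CPM, no trend, a series term, count tests of the recovered reads (DESeq2 1.42.0, edgeR 4.0.16), adjusted p alone, and each library left out. Fits within A and B or C and D alone, the series difference, and the block with TMM in limma were chosen after seeing the data. The limma, edgeR and DESeq2 fits were tested on simulated data.

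TPM used exon lengths of GENCODE 29 on GRCh38, which also gave coordinates and covered all 59 members. Tables were made with Python 3.11.15. Named members were the core genes of granule exocytosis, the 8 largest rises and 8 largest falls among called members without overlap, and members whose call depended on scaling; UNC13B, STXBP2, VAMP1, RIMS3, RIMS4, STX10, STXBP5L, STXBP6, SYTL2, STX16 and STX16-NPEPL1 were named after their values were seen. Members and lists were chosen with earlier results of these data known. Of the exocrine and stromal markers 2 of 6 and 2 of 5 were listed, and 1 and 0 of them called. Results of some genes that these rules cover are not reported here, though the genes stay in the counts and sums.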

Additional observations from a re-analysis of the deposited data

Results flagged for a closer look

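In 3 of 70 groups of 4 libraries tested, 1 control library lay far from the other 3 by Dixon's criterion, which chance alone meets in about 1 of 20 groups. SYT5 was 73.5 CPM in control library D against 107.3 to 112 CPM in the others, SYT4 was 92.8 CPM in control library C against 64.6 to 68.0 CPM, and STX11 was 0.938 CPM in control library D against 1.33 to 1.38 CPM. Without the library in question each gene remained called as higher.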

How the results depend on the processing

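No call of the named members changed direction. Of 284 fits of called members other than those leaving out a library, 238 kept the call and 46 lost it, and of 152 fits without 1 library 143 kept it. These counts leave out UNC13B, a called member that was named after its values were seen. UNC13B kept its call in 3 of 8 fits without 1 library and in 9 of 12 alternatives over all 8 libraries. The number of members called higher was 14 in DESeq2 (14.3% of all genes) and 15 with the replicate block in edgeR with TMM or in limma with TMM (15.9% of all genes in each). The number called lower was 4 with TMM scaling (11.6% of all genes) or median-of-ratios scaling (1883 of 16525 genes). It was 3 in edgeR with TMM (11.4% of all genes). It was 6 in DESeq2 and with the replicate block in edgeR or in limma with TMM (13.0%, 16.1% and 16.2% of all genes). Without 1 library, 8 to 10 members were called higher and 8 to 13 lower. Of all 16525 genes, 1375 to 1700 were then called higher and 2397 to 2922 lower. The replicate block on the CPM scale gave 10 and 15 (11.6% and 23.8% of all genes) and changed no call beyond the 5 named with it. In C and D alone 4 of the 68 other exocytosis genes were higher, where 7.22% of all genes were. Members higher in C and D than in A and B numbered 2 in edgeR with TMM, against 8.79% of all genes.

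Differences near 0 changed sign. SNAP25 and RIMS2 were both at 0.14 with TMM scaling and in edgeR with TMM, at 0.14 and 0.15 with median-of-ratios scaling, at 0.15 each in DESeq2, and at 0.14 each with the replicate block and TMM in edgeR and in limma. In A and B alone RIMS2 was at 0.06. Without 1 library SNAP25 ranged from -0.10 to 0.07, RIMS2 from -0.12 to 0.07, SYT11 from -0.02 to 0.11 and STXBP3 from -0.06 to 0.26. The cause was not tested. CADPS2 and SYTL5 were not tested under the filter at a mean of 1 CPM. Counts of few reads limit CADPS2, SYTL5 and RIMS4.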
